A study of Homo sapiens with 23 samples.

Results

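The 10 genes described here encode the core of Polycomb repressive complex 2 (PRC2) and the enzymes that write, copy and remove DNA methylation. They were taken as a fixed list by gene symbol, chosen with earlier results of these data known. All 10 were found in each of the 3 count tables. The LNCaP, LAPC4 and drug tables held 32784, 33114 and 33918 genes with at least 1 count. All 10 also passed the filter on low counts in every comparison. The list holds EZH2, EZH1, EED and SUZ12 of PRC2, the maintenance pair DNMT1 and UHRF1, the de novo methyltransferases DNMT3A and DNMT3B, and the dioxygenases TET1 and TET2. The question set for them was whether their transcripts move with proliferation genes or with a change of lineage.

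PRC2 places methyl groups on lysine 27 of histone H3, a mark of silenced genes. EZH2 and EZH1 are alternative catalytic subunits, and EED and SUZ12 are needed for either to work. After each round of DNA replication, UHRF1 recognises hemimethylated CpG sites and recruits DNMT1 to copy the pattern, while DNMT3A and DNMT3B methylate sites with no template and TET1 and TET2 oxidise the methyl group. In dividing cells EZH2, DNMT1 and UHRF1 are known as genes of the E2F programme, whereas EZH1 is typical of resting tissue. In prostate cancer EZH2 is known for high levels in advanced and neuroendocrine disease.

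The series follows ONECUT2 (OC2), a transcription factor with a CUT domain and a homeodomain, in 2 androgen-sensitive human prostate cancer cell lines. The 23 libraries form 9 groups. LNCaP cells, grown in RPMI-1640 with 10% serum, carried OC2 overexpression (2 libraries, beside 2 labelled control) or the hairpin shOC2 (2 libraries, beside 2 with the hairpin shCon). LAPC4 cells, grown in IMDM with 10% serum and 1 nM of the androgen R1881, carried OC2 overexpression (3 libraries, beside 3 labelled Vec, the vector). A further 9 LNCaP libraries, 3 a group, come from a treatment of 7 days with both enzalutamide and an OC2 inhibitor, each at 10 µM (the combination), with 10 µM enzalutamide alone, or with vehicle. Enzalutamide is an antagonist of the androgen receptor. The labels give neither the vectors, nor the compound's structure, nor whether clones or pools were used, and nothing says that libraries of a group came from separate cultures, so p-values measure the spread between these libraries, which may be technical.

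Levels are CPM, counts scaled to a common library total, with library sizes adjusted by TMM within each table, and the tables were scaled separately. Library totals ran from 20964025 to 30465978 counts. ONECUT2 itself stood at 332 and 304 CPM in overexpressing LNCaP cells against 24.6 and 30.7 CPM in control, and at 968, 805 and 913 CPM in overexpressing LAPC4 cells against 13.3, 17.1 and 16.1 CPM with the vector. It stood at 12.1 and 12.2 CPM with shOC2 against 20.4 and 21.2 CPM with shCon, so the hairpin lowered it by less than the overexpression raised it. Luminal prostate markers were detected in all libraries, and the summed level of 13 stromal, endothelial and blood cell markers lay between 4.59 and 37.3 CPM. In bulk RNA, fewer cells of a type and less RNA per cell cannot be told apart. The drug table mixes 2 kinds of values: the enzalutamide columns are whole counts, the combination and vehicle columns are estimated counts that need not be whole, and the mitochondrial share of counts was 2.23% to 4.71% in the enzalutamide libraries, 10.7% in each combination library and 10.5% to 11.1% in vehicle libraries. In every contrast with the enzalutamide libraries the drug and this difference in counting cannot be told apart. The enzalutamide columns are named without a number, with 1 and with 2, and are given below in the order 1, 2, unnumbered.

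The start regions of 4 members are shown because each holds an E2F-type word, at different distances from the start, while the genes moved differently. Each line gives 150 bases before to 10 bases after a RefSeq transcript start (GRCh38.p14), 5′ to 3′ in the gene's direction, with the word in capitals. The words searched were TTTCCCGC, TTTCGCGC, TTTGCCGC and TTTGGCGC on both strands, and a start is counted as position 1.
EZH2 (chr7:148884282-148884441, minus strand, word from position 2): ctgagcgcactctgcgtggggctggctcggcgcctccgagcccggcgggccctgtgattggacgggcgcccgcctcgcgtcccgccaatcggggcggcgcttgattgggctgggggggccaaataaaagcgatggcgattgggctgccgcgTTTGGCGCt
UHRF1 (chr19:4909351-4909510, plus strand, word from position -14): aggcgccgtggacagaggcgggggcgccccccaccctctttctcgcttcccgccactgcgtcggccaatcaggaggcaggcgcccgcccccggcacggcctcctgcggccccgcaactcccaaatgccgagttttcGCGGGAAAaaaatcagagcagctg
DNMT1 (chr19:10194944-10195103, minus strand, word from position -2): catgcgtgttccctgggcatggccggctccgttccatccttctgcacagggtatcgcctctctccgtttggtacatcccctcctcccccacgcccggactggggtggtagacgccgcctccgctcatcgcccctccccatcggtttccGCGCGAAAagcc
EZH1 (chr17:42745031-42745190, minus strand, word from position -115): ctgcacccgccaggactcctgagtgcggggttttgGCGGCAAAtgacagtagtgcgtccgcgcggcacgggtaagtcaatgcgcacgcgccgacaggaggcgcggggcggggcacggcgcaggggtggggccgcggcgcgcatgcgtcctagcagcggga

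An E2F-type word lay in at least 1 window (250 bases before to 50 after a start) of 5 of the 10 members: EZH2, EZH1, SUZ12, DNMT1 and UHRF1. The share over all 27305 genes with a window was 3.99%, and among windows with at least 30 CG dinucleotides it was 5.92%. Of the DNA replication genes with a window, 16 of 26 held the word (61.5%), and of the mitosis genes 2 of 19 did (10.5%). By window, the E2F-type word lay in 6 of the members' 21 windows, against 3.31% of all windows. The CCAAT word, in either orientation, lay in 8 of the 21 windows, against 34.6% of all windows, with 4 copies in the EZH2 window. TTTGAA and TTCGAA were searched together on both strands and lay in 3 of the 21 windows, each time as TTTGAA or its reverse complement, against 16.4% of all windows. Within a window no words found in the members overlapped one another, but windows of the same gene can overlap. In TET1 the same reversed CCAAT word lay in 2 overlapping windows, at positions -30 and -236. A match describes the letters only, and EZH1, which holds the word, did not move with the replication genes below.

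Compared per kilobase of exon (CPM per kb, GENCODE 29), DNMT1, SUZ12, EZH2 and UHRF1 were the 4 most abundant members in 7 of the 9 groups, and TET1 was the lowest in all 9. In LNCaP control cells DNMT1 stood at 22.9 ± 0.89 CPM per kb and EZH2 at 20.2 ± 1.09 CPM per kb (SD, n = 2), while EED stood at 2.68 ± 0.11, EZH1 at 2.17 ± 0.04, DNMT3A at 1.83 ± 0.14 and DNMT3B at 1.60 ± 0.01 CPM per kb. The exceptions were the combination and enzalutamide groups. Under the combination SUZ12 led with 10.1 ± 0.43 CPM per kb, and EZH1 (5.09 ± 0.14) and DNMT3A (4.13 ± 0.29) stood above or beside EZH2 (3.93 ± 0.50) and UHRF1 (3.13 ± 0.80, all CPM per kb, SD, n = 3). DNMT3A and EZH2 did not differ beyond their spread there. Under enzalutamide alone SUZ12 (11.1 ± 0.85), DNMT1 (9.83 ± 2.86) and EZH2 (8.66 ± 2.35) overlapped in their spread, and UHRF1 was eighth with 2.68 ± 1.19 CPM per kb.

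**Figure D1:**
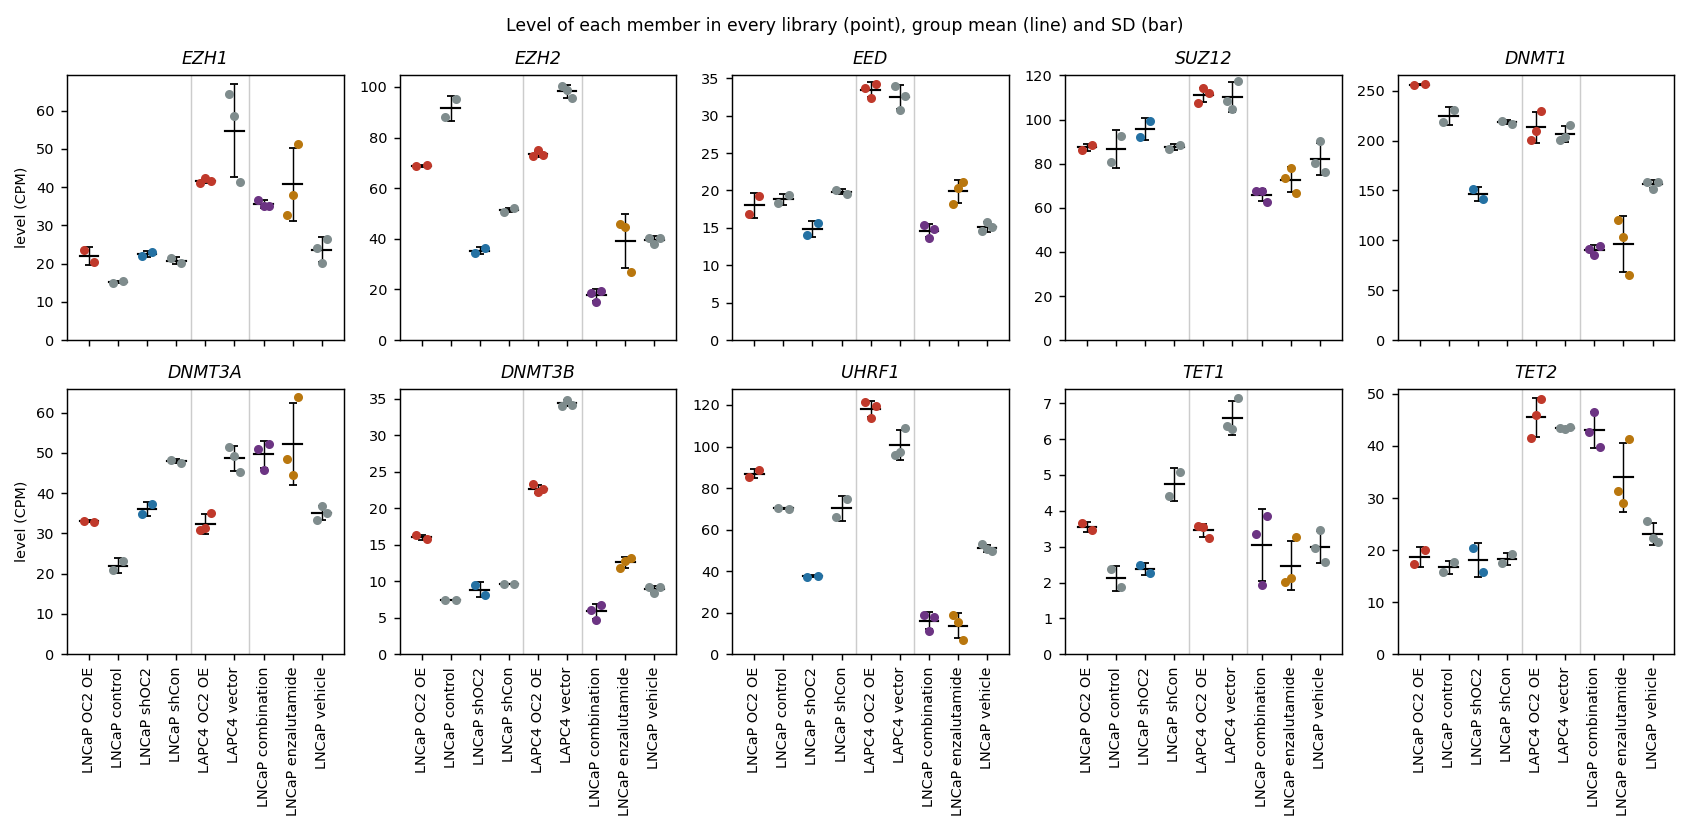
Level of each of the 10 genes in CPM (vertical axis, a scale per gene starting at 0) in every library of the 9 groups. Points are libraries, lines are group means and bars are SD, and grey verticals part the 3 tables. UHRF1 and DNMT1 are lowest in the combination and enzalutamide libraries, and EZH2 lies at 15.2 to 19.4 CPM in combination libraries but at 26.9 to 46.0 CPM in enzalutamide libraries.

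A member was called where edgeR's quasi-likelihood F-test gave a Benjamini-Hochberg adjusted p under 0.05 over all genes, and the number called is read against the share of all genes called. In overexpressing LNCaP cells 5 were higher and 1 was lower than in control, where 60.8% of 17046 genes were called (31.6% higher and 29.3% lower). In overexpressing LAPC4 cells 1 was higher and 5 were lower than with the vector, where 61.1% of 16904 genes were called (32.1% higher and 29.0% lower). With shOC2, 6 were lower and 0 higher than with shCon, where 54.1% of 16585 genes were called (27.3% higher and 26.8% lower). With the combination 3 were higher and 5 lower than with vehicle (46.8% of 17415 genes called, 23.2% higher and 23.6% lower), and with enzalutamide 5 were higher and 2 lower than with vehicle (70.4% called, 34.7% higher and 35.6% lower). In the combination against enzalutamide 1 was higher and 3 were lower (61.9% called, 31.5% higher and 30.4% lower). Since most of these shares lie near the background, the results below are which members moved and which way, not how many. The last 3 comparisons share libraries among themselves.

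The yardsticks were a list of 30 DNA replication genes, a list of 25 mitosis genes and lists of lineage genes. Replication genes were lower with shOC2 than with shCon in 29 of 30 cases (median log2 fold change -0.53), lower in 30 of 30 with the combination than with vehicle (-1.26), and lower in 25 of 30 with enzalutamide than with vehicle (-1.14). Mitosis genes followed in these comparisons, with 23, 25 and 21 of 25 lower and none higher. MKI67 and CDK1 were exceptions under shOC2, where neither passed the test (log2 fold changes 0.12 and 0.05, edgeR adjusted p = 0.0901 and 0.455). Under OC2 overexpression the replication list moved little: 15 were higher and 5 lower in LNCaP (median 0.18), and 12 were higher and 6 lower in LAPC4 (0.11). The mitosis list had 7 higher and 6 lower of 25 in LNCaP (median -0.01), but 17 higher and 1 lower in LAPC4 (0.37), so mitosis genes rose in LAPC4. The median over all genes tested lay within 0.02 of 0 in each comparison.

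Luminal genes moved under overexpression too. Of 20 luminal prostate genes, 11 were lower and 4 higher in overexpressing LNCaP cells than in control, and 16 were lower and 3 higher in overexpressing LAPC4 cells than with the vector. KLK3, the gene of prostate-specific antigen, stood at 1064 and 989 CPM in overexpressing LNCaP cells against 3219.9 and 3100.5 CPM in control (log2 fold change -1.64, SE 0.07, edgeR adjusted p = 5.42e-08). The LNCaP control sets differed here too. KLK3 stood at 1773 and 1898 CPM with shCon, and 9 luminal genes were lower and 7 higher with shCon than in control. Of 20 neuroendocrine and 16 mesenchymal genes, only 12 and 9 passed the filter on low counts in LNCaP and 9 and 14 in LAPC4, several of them only through the group in which they are high, so their counts of calls support nothing. SYP, a synaptic vesicle gene, stood at 48.7 and 54.4 CPM in overexpressing LNCaP cells against 2.18 and 2.67 CPM in control (4.39, SE 0.13, edgeR adjusted p = 8.24e-09). In LAPC4 it stood at 4.32, 4.37 and 4.54 CPM with overexpression against 1.64, 1.45 and 1.74 CPM with the vector. CHGA, also a neuroendocrine gene, stayed near 0, with 5 and 2 counts in overexpressing LNCaP libraries against 1 and 0 in control. In LAPC4 it had 1, 2 and 4 counts with overexpression against 1 in each vector library. VIM, a mesenchymal filament gene, stood at 883, 753 and 850.4 CPM in overexpressing LAPC4 cells against 1.71, 0.896 and 1.71 CPM with the vector. With shOC2, 12 luminal genes were higher and 6 lower than with shCon. With the combination 11 were lower and 7 higher than with vehicle, and with enzalutamide 12 were lower and 6 higher. Lower luminal genes thus came beside a replication median of 0.18 and 0.11 under overexpression, and of -1.26 and -1.14 under the drugs.

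**Figure D2:**
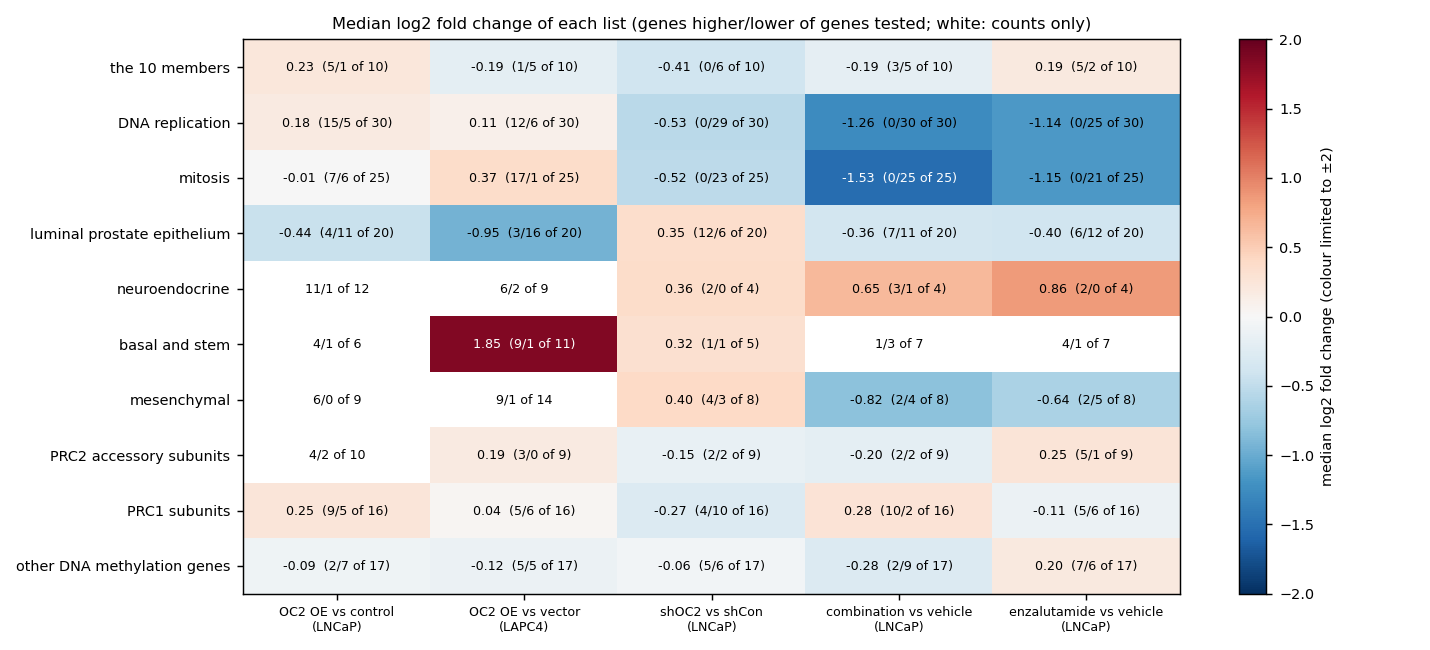
Median log2 fold change (colour and first number) of the 10 members and of 9 gene lists (rows) in 5 comparisons (columns), with the number of genes called higher and lower of those tested. White cells give counts only, because a gene of the list had at most 3 counts in a group. Counts for the neuroendocrine, basal and mesenchymal lists include genes that passed the filter only through the group in which they are high. The replication and mitosis medians are -0.52 or lower in the 3 columns on the right, while the luminal median is below 0 in all columns but shOC2 against shCon.

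EZH2, the catalytic subunit of PRC2 in dividing cells (chromosome 7, 148807383 to 148884321, minus strand, hg38), was lower in 4 of the 5 treatment comparisons. It stood at 68.6 and 69.1 CPM in overexpressing LNCaP cells against 88.1 and 95.03 CPM in control, without overlap. The log2 fold change was -0.43 (SE 0.08, edgeR adjusted p = 0.000812). In LAPC4 it stood at 72.6, 75.01 and 73.2 CPM with overexpression against 100.4, 98.6 and 95.6 CPM with the vector, also without overlap (-0.42, SE 0.06, edgeR adjusted p = 0.00016). In both lines EZH2 was thus lower than these controls while the median of the replication list was not, but against the shCon libraries EZH2 was higher in overexpressing LNCaP cells (0.42, edgeR adjusted p = 0.000112), so its LNCaP direction depends on the control. With shOC2 it stood at 34.3 and 36.4 CPM against 50.7 and 52.03 CPM with shCon (-0.53, SE 0.06, edgeR adjusted p = 6.07e-05), a fall the size of the replication list's median of -0.53.

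The drug arms parted for EZH2. It stood at 18.7, 15.2 and 19.4 CPM with the combination, at 46.04, 44.5 and 26.9 CPM with enzalutamide and at 40.3, 37.8 and 40.5 CPM with vehicle. Every combination library was below every other library of the table, while the enzalutamide libraries lay on both sides of vehicle. The combination was 2.23-fold lower than vehicle (log2 fold change -1.15, SE 0.19, edgeR adjusted p = 0.000715) and 2.20-fold lower than enzalutamide (-1.14, SE 0.18, edgeR adjusted p = 0.000371). Enzalutamide did not differ detectably from vehicle (-0.01, SE 0.18, edgeR adjusted p = 0.947). In enzalutamide the low library is the unnumbered column, which also had the lowest level of replication genes (mean log2 level 4.20, against 5.34 and 5.15 in the numbered columns), and without it the combination remained lower than enzalutamide (log2 fold change -1.34).

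EZH1, the catalytic subunit typical of resting cells (chromosome 17, 42700275 to 42745049, minus strand), moved against EZH2 under the combination. It did so too under overexpression in LNCaP relative to control, but not relative to shCon. It stood at 36.7, 34.98 and 35.03 CPM with the combination, 32.8, 38.1 and 51.3 CPM with enzalutamide and 24.2, 20.1 and 26.5 CPM with vehicle. All treated libraries lay above all vehicle libraries, by a log2 fold change of 0.59 (SE 0.16, edgeR adjusted p = 0.0113) with the combination and of 0.79 (SE 0.16, edgeR adjusted p = 0.00114) with enzalutamide. The combination's call was lost without vehicle replicate 2 (edgeR adjusted p = 0.0501). Under overexpression in LNCaP it stood at 23.6 and 20.4 CPM against 15.00 and 15.3 CPM in control (0.52, SE 0.11, edgeR adjusted p = 0.00215), a call lost against the shCon libraries (0.075, edgeR adjusted p = 0.505). The LAPC4 direction was opposite, with 41.2, 42.3 and 41.5 CPM under overexpression against 64.5, 58.6 and 41.3 CPM with the vector (-0.40, SE 0.14, edgeR adjusted p = 0.0306). That LAPC4 call rests on wide vector libraries whose lowest value lies among the overexpressing ones. It was lost in 5 of the 6 fits without 1 library (edgeR adjusted p up to 0.0942). The fit without vector replicate 3, the lowest, kept the call (-0.565, edgeR adjusted p = 3.66e-08). Replicate 3 differed most from its group over all genes, with a mean chi-square per gene of 36.1 and 20.2 against replicates 1 and 2. Between replicates 1 and 2 it was 4.68. EZH1 did not pass the test with shOC2 against shCon (0.12, edgeR adjusted p = 0.216).

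EED, which binds the methylated histone tail, and SUZ12, the scaffold subunit, were called in 2 and 1 of the 5 treatment comparisons. EED (chromosome 11, 86244544 to 86278813, plus strand) stood at 14.1 and 15.6 CPM with shOC2 against 20.04 and 19.6 CPM with shCon (-0.41, SE 0.09, edgeR adjusted p = 0.00345), a call lost without shOC2 replicate 1 (edgeR adjusted p = 0.0679). It stood at 15.4, 13.7 and 14.8 CPM with the combination, 18.2, 20.3 and 21.2 CPM with enzalutamide and 14.5, 15.8 and 15.2 CPM with vehicle. Only the enzalutamide libraries stood apart there, above both other arms (0.39 against vehicle, SE 0.10, edgeR adjusted p = 0.00487). SUZ12 (chromosome 17, 31937018 to 32001045, plus strand) stood at 67.6, 67.4 and 62.6 CPM with the combination, 73.5, 77.96 and 66.9 CPM with enzalutamide and 80.4, 90.2 and 76.2 CPM with vehicle. It was called in the combination against vehicle alone among the 5 comparisons (-0.32, SE 0.09, edgeR adjusted p = 0.0112), and that call was lost without combination replicate 3 or without vehicle replicate 2 (edgeR adjusted p = 0.051 and 0.0503). Under overexpression the log2 fold changes were -0.08 and -0.00 in LNCaP and 0.04 and 0.01 in LAPC4 for EED and SUZ12, and none passed the test (edgeR adjusted p = 0.549, 0.964, 0.62 and 0.875). With shOC2 SUZ12 stood at 92.2 and 99.2 CPM against 86.7 and 88.4 CPM with shCon, higher without overlap but short of the threshold (0.14, SE 0.06, edgeR adjusted p = 0.0641). SUZ12 has an annotated pseudogene, SUZ12P1, so its level is uncertain where reads match both. Its counts were not whole in 8 of 8 libraries of the LNCaP table and in 6 of 9 of the drug table.

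UHRF1, which brings DNMT1 to newly replicated DNA (chromosome 19, 4903080 to 4962154, plus strand), was called in all 5 treatment comparisons and moved in the direction of the replication list's median in each. In overexpressing LNCaP cells it stood at 85.4 and 88.5 CPM against 70.3 and 70.1 CPM in control (0.29, SE 0.07, edgeR adjusted p = 0.00563). In overexpressing LAPC4 cells it stood at 121, 114 and 119 CPM against 95.9, 97.3 and 109 CPM with the vector (0.23, SE 0.07, edgeR adjusted p = 0.0162). The groups did not overlap in either line. Both rises are small, and the test was missed in 1 of 4 LNCaP fits and in 4 of 6 LAPC4 fits that left out a library. In these fits the edgeR adjusted p ran up to 0.0888 in LNCaP and from 0.000216 to 0.101 in LAPC4. The falls were larger. With shOC2 UHRF1 stood at 37.3 and 37.9 CPM against 65.9 and 74.5 CPM with shCon, 1.86-fold lower (SE 0.07 on the log2 scale, edgeR adjusted p = 4.76e-06).

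Among the drug arms UHRF1 stood at 18.8, 11.3 and 18.1 CPM with the combination, 18.9, 15.4 and 7.00 CPM with enzalutamide and 53.01, 50.4 and 49.6 CPM with vehicle. No treated library came near vehicle, and the treated arms overlapped. The combination was 3.17-fold lower than vehicle (log2 fold change -1.66, SE 0.30, edgeR adjusted p = 0.00147) and enzalutamide was 3.70-fold lower (-1.89, SE 0.30, edgeR adjusted p = 0.00027). Between the combination and enzalutamide the difference was 0.22 (SE 0.30, edgeR adjusted p = 0.54), too uncertain to give a direction. UHRF1 counts were not whole in 7 of 8 libraries of the LNCaP table and 6 of 9 of the drug table, so some of its reads may have been shared with another sequence.

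DNMT1, the maintenance methyltransferase (chromosome 19, 10133345 to 10231286, minus strand), fell in the 3 treatment comparisons in which the replication list fell and did not pass the test in the 2 overexpression comparisons. With shOC2 it stood at 151 and 141 CPM against 219.6 and 217 CPM with shCon (-0.57, SE 0.05, edgeR adjusted p = 1.46e-05). It stood at 91.6, 85.5 and 94.4 CPM with the combination, 120.4, 103 and 65.5 CPM with enzalutamide and 159, 152 and 159 CPM with vehicle, all treated libraries being below vehicle. The log2 fold change against vehicle was -0.79 (SE 0.17, edgeR adjusted p = 0.00414) with the combination and -0.70 (SE 0.17, edgeR adjusted p = 0.00429) with enzalutamide, shallower than the replication medians of -1.26 and -1.14. With overexpression in LNCaP it stood at 256 and 256 CPM against 218 and 231 CPM in control, above without overlap but short of the threshold (0.17, SE 0.07, edgeR adjusted p = 0.0512). It passed in 3 alternatives: against the shCon libraries (0.23, edgeR adjusted p = 0.00219), without control replicate 2 (0.21, edgeR adjusted p = 0.0333) and under the replicate block (0.17, edgeR adjusted p = 0.0138). In LAPC4 the groups overlapped, at 200.4, 209 and 229.8 CPM with overexpression against 201, 204 and 216 CPM with the vector.

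**Figure D3:**
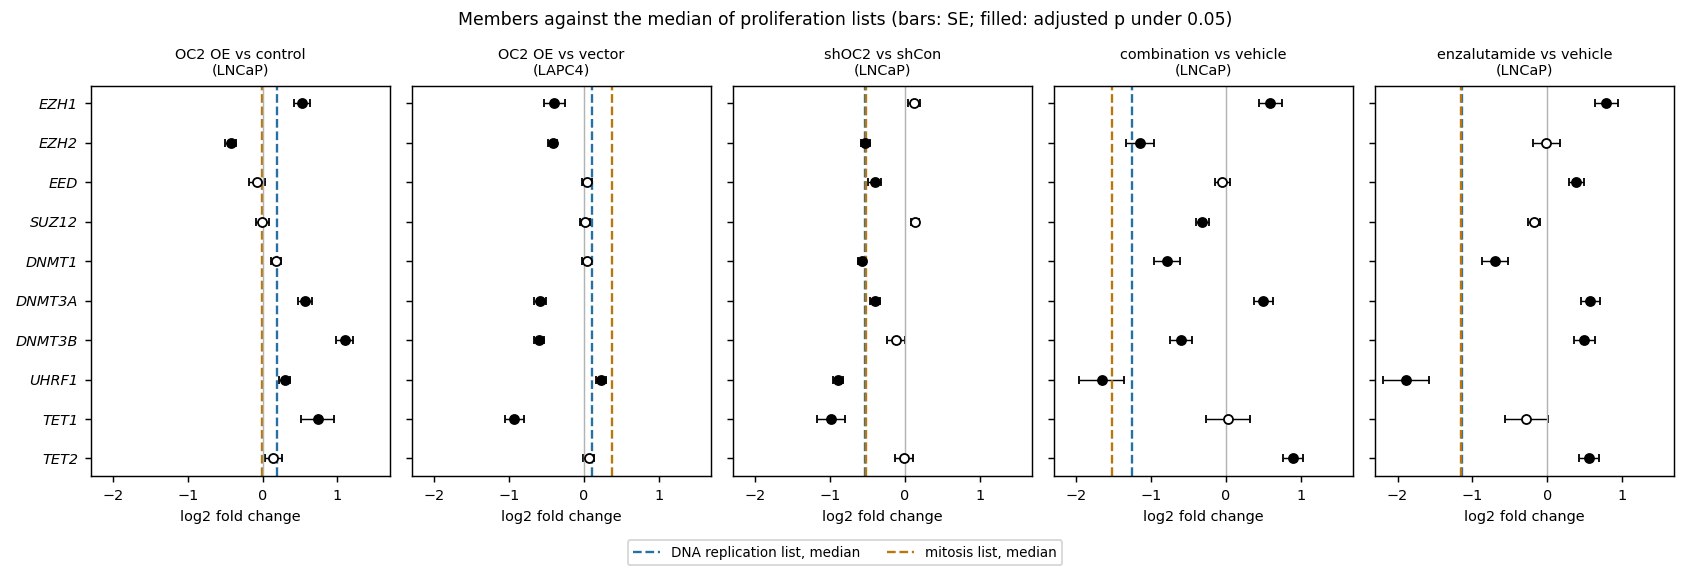
Log2 fold change (horizontal axis, bars SE) of the 10 members (rows) in 5 comparisons (panels). Filled points passed the adjusted p threshold of 0.05, and dashed lines mark the median of the replication and mitosis lists. UHRF1 lies beyond or near the dashed lines in the 3 panels on the right, DNMT1 lies between them and 0 under the drugs, and EZH1, DNMT3A and TET2 lie on the positive side under the drugs.

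DNMT3A, a de novo methyltransferase (chromosome 2, 25227855 to 25342590, minus strand), was called in all 5 treatment comparisons but without a fixed relation to the replication list. It stood at 51.1, 45.7 and 52.1 CPM with the combination, 48.4, 44.5 and 63.8 CPM with enzalutamide and 33.4, 36.8 and 35.1 CPM with vehicle. All treated libraries lay above vehicle (0.50 with the combination, SE 0.13, edgeR adjusted p = 0.00849, and 0.58 with enzalutamide, SE 0.13, edgeR adjusted p = 0.00203), while replication genes fell. Overexpressing LNCaP libraries held it at 33.2 and 32.8 CPM against 20.8 and 23.3 CPM in control (0.57, SE 0.09, edgeR adjusted p = 0.000555). Against the shCon libraries the direction turned (-0.54, edgeR adjusted p = 3.65e-05). In overexpressing LAPC4 cells it stood at 30.7, 31.3 and 35.2 CPM against 51.5, 49.3 and 45.2 CPM with the vector, lower without overlap (-0.59, SE 0.08, edgeR adjusted p = 0.000177). With shOC2 it stood at 34.8 and 37.3 CPM against 48.3 and 47.5 CPM with shCon (-0.40, SE 0.06, edgeR adjusted p = 0.000427), both hairpin groups lying apart.

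DNMT3B, its paralogue, known for high levels in embryonic cells (chromosome 20, 32762385 to 32809356, plus strand), had the steepest rise of the members in overexpressing LNCaP cells. It stood there at 16.3 and 15.8 CPM against 7.45 and 7.39 CPM in control, 2.14-fold higher (SE 0.11 on the log2 scale, edgeR adjusted p = 2.62e-05). In overexpressing LAPC4 cells it stood at 23.3, 22.2 and 22.6 CPM against 34.1, 34.9 and 34.2 CPM with the vector, lower without overlap (-0.60, SE 0.07, edgeR adjusted p = 4.96e-05). With shOC2 it did not pass the test (-0.12, edgeR adjusted p = 0.443). The drug arms formed 3 separate levels, with 6.12, 4.73 and 6.76 CPM under the combination, 11.8, 12.8 and 13.1 CPM under enzalutamide and 9.21, 8.38 and 9.17 CPM under vehicle. The combination was lower than vehicle (-0.60, SE 0.15, edgeR adjusted p = 0.00679) and enzalutamide was higher (0.50, SE 0.14, edgeR adjusted p = 0.00892), so the combination was 2.14-fold lower than enzalutamide (SE 0.14 on the log2 scale, edgeR adjusted p = 8.6e-05).

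TET1 (chromosome 10, 68560656 to 68694482, plus strand), a dioxygenase of methylated cytosine, was the scarcest member, with 91 to 573 counts per group. In LAPC4 it stood at 3.56, 3.56 and 3.24 CPM with overexpression against 6.36, 6.27 and 7.13 CPM with the vector, 1.91-fold lower (SE 0.13 on the log2 scale, edgeR adjusted p = 0.000155). In overexpressing LNCaP cells it stood at 3.66 and 3.46 CPM against 2.37 and 1.87 CPM in control, higher (0.73, SE 0.22, edgeR adjusted p = 0.0156), a call lost by DESeq2 (adjusted p = 0.104) and in 2 of 4 fits without 1 library, and turned in direction against the shCon libraries (-0.42, edgeR adjusted p = 0.056). With shOC2 it stood at 2.49 and 2.26 CPM against 4.42 and 5.07 CPM with shCon (-0.99, SE 0.19, edgeR adjusted p = 0.00169). The drug arms overlapped and neither contrast with vehicle passed the test.

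TET2 (chromosome 4, 105145875 to 105279816, plus strand), which acts alongside TET1, was called in both drug comparisons with vehicle and in neither the overexpression nor the knockdown comparisons. It stood at 42.6, 46.6 and 39.8 CPM with the combination, 31.4, 29.05 and 41.4 CPM with enzalutamide and 25.6, 22.4 and 21.5 CPM with vehicle. All treated libraries were above vehicle, by 1.86-fold with the combination (SE 0.14 on the log2 scale, edgeR adjusted p = 0.000507) and 1.47-fold with enzalutamide (SE 0.13, edgeR adjusted p = 0.00394). The combination was called above enzalutamide (0.34, SE 0.13, edgeR adjusted p = 0.0448), but the libraries overlapped and the call was lost in 5 of 9 fits without 1 library (edgeR adjusted p up to 0.155). In the overexpression and knockdown contrasts the log2 fold change lay between -0.01 and 0.14 and none passed the test.

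Set against the replication genes of the same library (log2 level of the member minus the mean log2 level of the 30 genes, with no test), the members separated. DNMT1 kept its distance from the list under shOC2, at 1.21, against 1.19 with shCon, and the libraries overlapped. EZH2 kept its distance under the combination, at -0.72 against -0.76 with vehicle, again with overlap, but stood above it under enzalutamide, at 0.37 against -0.76 with vehicle. UHRF1 was further below the list in all 3 comparisons in which the list fell, with differences of -0.29 for shOC2, -0.49 for the combination and -0.77 for enzalutamide. Under overexpression EZH2 was lower relative to the list than in control or vector libraries, with differences of -0.57 in LNCaP and -0.53 in LAPC4. The LNCaP direction depends on the control, with EZH2 at -0.67 under overexpression, -0.10 in control and -0.89 with shCon. DNMT3A, EZH1 and TET2 gained between 1.68 and 2.07 on the list under the combination, relative to vehicle. TET1, EED, SUZ12, DNMT3B and DNMT1 gained there too, by 1.17, 1.13, 0.87, 0.61 and 0.40. Each gain includes the fall of the list itself (median log2 fold change -1.26). With the mitosis list in place of the replication list the sign of each of these differences was the same, though EZH2 then stood at -0.62 under the combination against -0.97 with vehicle, below the mitosis list in both but less far below it under the combination. Among all members in the 5 treatment comparisons the sign changed for UHRF1 in LAPC4 (0.11 by replication, -0.14 by mitosis) and for TET2 in overexpressing LNCaP cells (-0.01 and 0.12).

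**Figure D4:**
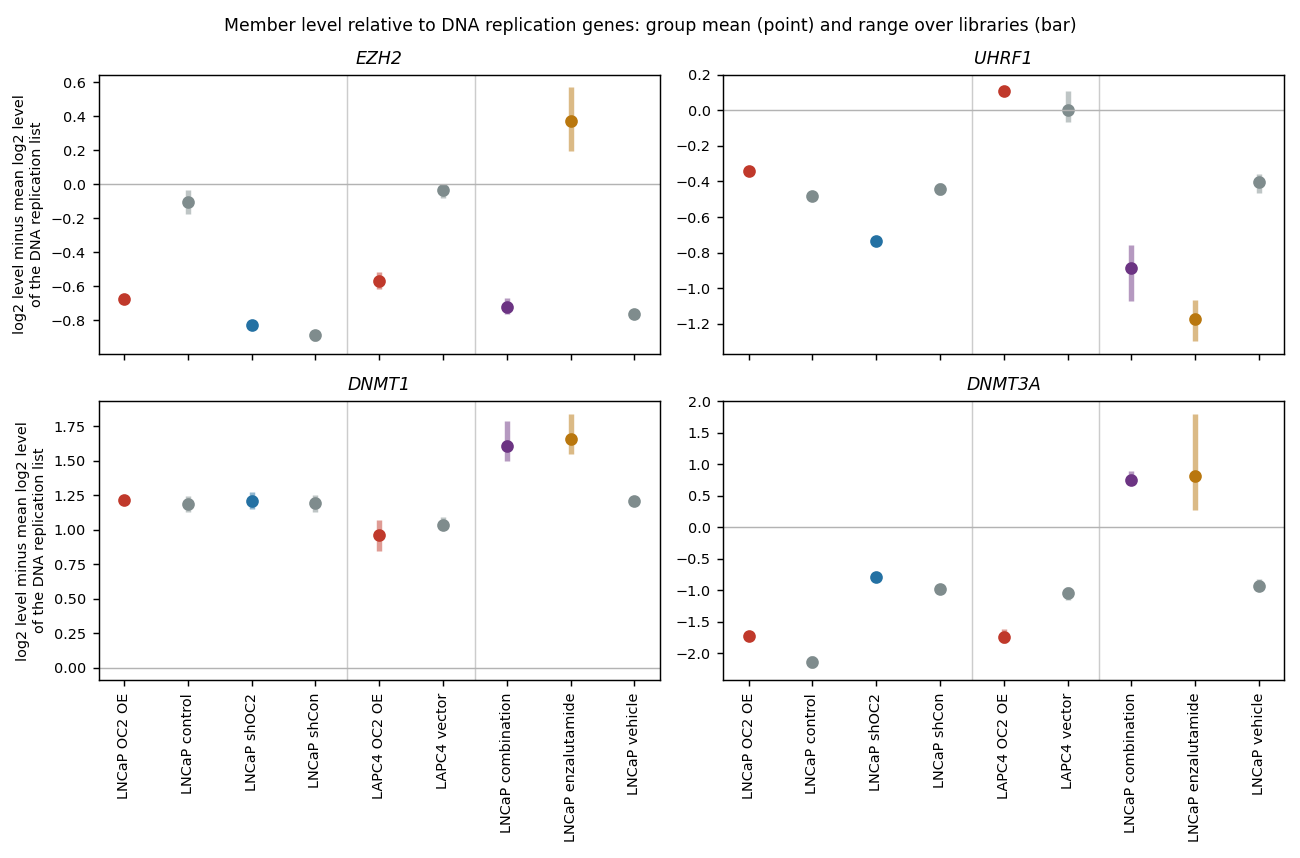
Level of EZH2, UHRF1, DNMT1 and DNMT3A relative to the DNA replication list (vertical axis, log2 level minus the list's mean log2 level) in the 9 groups. Points are group means and thick bars the range over libraries. DNMT1 is level across the 4 groups of the LNCaP table, while EZH2 in enzalutamide stands at 0.37, above all other groups.

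The LNCaP overexpression contrast depends on which control is used for several members. The control and shCon libraries, both LNCaP cells labelled as controls, differed from each other in 4 members higher and 1 lower in shCon, where 56.4% of 16790 genes were called (28.3% higher and 28.1% lower). EZH2 stood at 50.7 and 52.03 CPM with shCon against 88.1 and 95.03 CPM in control (-0.84, SE 0.08, edgeR adjusted p = 2.25e-05), which is larger in size than the -0.43 found for overexpression. EZH1 was called higher there, at 21.4 and 20.2 CPM with shCon against 15.00 and 15.3 CPM in control. EZH1 and EZH2 thus also moved apart between the control sets. DNMT3A stood at 48.3 and 47.5 CPM with shCon against 20.8 and 23.3 CPM in control (1.11, SE 0.09, edgeR adjusted p = 9.59e-06). DNMT3B differed by 0.37 (edgeR adjusted p = 0.0317), a call lost by DESeq2 (adjusted p = 0.175) and in all 4 fits without 1 library. TET1 differed by 1.16 (SE 0.21, edgeR adjusted p = 0.00149). MKI67 stood at 113 and 110 CPM with shCon against 197 and 212 CPM in control, but CDK1 at 200 and 203 against 191 and 201 CPM. Mitosis genes were 2 higher and 10 lower of 25 with shCon (median -0.04), and replication genes 12 higher and 10 lower of 30 (0.02). The mitochondrial share was 3.62% and 4.51% with shCon against 11.5% and 11.7% in control. The part of proliferation or of the mitochondrial share in the members' differences was not tested. With the shCon libraries as reference for overexpression, EZH2, DNMT3A and TET1 turned in direction, EZH1 was no longer called and DNMT1 was called higher, with the values given above for each. DNMT3B and UHRF1 stayed higher in overexpressing cells against either set.

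**Figure D5:**
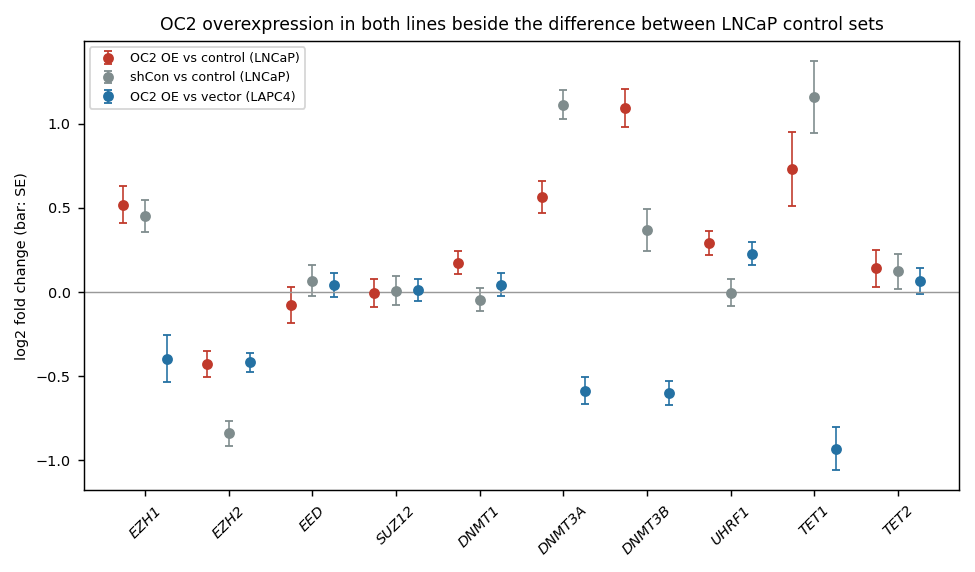
Log2 fold change (vertical axis, bars SE) of the 10 members for OC2 overexpression in LNCaP, for shCon against control in LNCaP and for OC2 overexpression in LAPC4. EZH2, DNMT3A and TET1 differ more between the LNCaP control sets than under overexpression, whereas DNMT3B differs by 1.10 under overexpression and by 0.37 between control sets.

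The effect of overexpression was compared between the lines by an interaction contrast over 19633 genes, of which 49.5% were called (25.4% higher and 24.1% lower). For 4 of the 10 members the effect was more negative in LAPC4 than in LNCaP, and for 0 it was more positive. They were DNMT3B (-1.69, SE 0.12, edgeR adjusted p = 9.43e-08), TET1 (-1.66, SE 0.23, edgeR adjusted p = 5.04e-05), DNMT3A (-1.15, SE 0.13, edgeR adjusted p = 6.75e-06) and EZH1 (-0.91, SE 0.21, edgeR adjusted p = 0.00274). EZH2, which was lower in both lines, gave a difference of 0.01 (SE 0.10, edgeR adjusted p = 0.984). Line, medium, androgen, kind of control, kind of count (estimated in LNCaP, whole in LAPC4) and the size of the OC2 rise differ together and cannot be told apart. With shCon as the LNCaP reference the DNMT3A difference shrank to -0.10 (edgeR adjusted p = 0.498), TET1 to -0.57 (edgeR adjusted p = 0.038) and EZH1 to -0.53 (edgeR adjusted p = 0.0451), and EZH2 became different between lines (-0.89, edgeR adjusted p = 1.72e-06). In LAPC4 the mitochondrial share was 3.37% to 3.99% with overexpression against 8.73% to 9.47% with the vector, whose part was not tested.

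Of the PRC2 accessory subunits, 4 of 10 tested were higher and 2 lower in overexpressing LNCaP cells than in control, 3 of 9 higher and 0 lower in LAPC4, 2 higher and 2 lower of 9 with shOC2, 2 and 2 of 9 with the combination, and 5 and 1 of 9 with enzalutamide. PHF19, which tethers PRC2 to chromatin, rose in overexpressing LAPC4 cells (3.29, SE 0.08, edgeR adjusted p = 8.64e-10). PHF1, a relative of PHF19, was higher than vehicle with the combination (0.94, SE 0.15, edgeR adjusted p = 0.000655) and with enzalutamide (0.97, SE 0.15, edgeR adjusted p = 0.000193). The list of enzymes that remove methyl groups from lysine 27 holds 2 genes. KDM6A fell in overexpressing LNCaP cells (-1.87, SE 0.07, edgeR adjusted p = 3.94e-08) and in LAPC4 (-0.63, SE 0.07, edgeR adjusted p = 3.62e-05), and rose with the combination (1.06, SE 0.07, edgeR adjusted p = 3.97e-06), with enzalutamide (1.37) and with shOC2 (0.36). KDM6B rose in overexpressing LNCaP cells (0.62, SE 0.07, edgeR adjusted p = 5.14e-05) and with shOC2 (0.62), fell in overexpressing LAPC4 cells (-0.93, SE 0.08, edgeR adjusted p = 5.53e-06) and did not pass the test in either drug arm against vehicle.

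Of 16 subunits of PRC1, the complex that reads the PRC2 mark, 9 were higher and 5 lower in overexpressing LNCaP cells than in control, 5 and 6 in LAPC4, 4 and 10 with shOC2, 10 and 2 with the combination, and 5 and 6 with enzalutamide. CBX2 and CBX7, which bind the mark, moved apart under the combination (-1.01, SE 0.08, edgeR adjusted p = 1.07e-05 for CBX2, and 1.13, SE 0.09, edgeR adjusted p = 1.04e-05 for CBX7). Of 17 other DNA methylation genes tested, 2 were higher and 7 lower in overexpressing LNCaP cells, 5 and 5 in LAPC4, 5 and 6 with shOC2, 2 and 9 with the combination, and 7 and 6 with enzalutamide. HELLS, a remodeller needed for DNA methylation, rose in overexpressing LNCaP cells (1.18, SE 0.08, edgeR adjusted p = 1.37e-06) and fell with the combination (-1.08, SE 0.33, edgeR adjusted p = 0.0213).

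Finally, genes were ranked by how near their 5 log2 fold changes came to those of each member (root mean square difference over 5 treatment comparisons, 12583 genes, the drug contrasts sharing vehicle). The nearest to UHRF1 were NCAPG (0.20), GMNN (0.23) and CCNA2 (0.23), genes of chromosome condensation, licensing control and the cell cycle. DNMT1 had C4orf46 (0.08), RRP1 (0.09) and SSRP1 (0.11, a histone chaperone) as nearest. EZH2 had the centrosomal gene CEP152 (0.19), RFLNB (0.19) and OTULIN (0.22), and the median gene lay at 0.83 from it. For EZH1 the nearest were PXK (0.09), BCOR (0.12, a PRC1-associated corepressor) and ZNF461 (0.13), and for DNMT3A TIGD3 (0.12), DOP1A (0.14) and DYNC2I1 (0.15). For the rest the nearest gene was EID2 for EED (0.07), FOCAD for SUZ12 (0.06), RAD54L2 for DNMT3B (0.20), CHDH for TET1 (0.15) and CYFIP2 for TET2 (0.12).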

How the data were processed

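RNA from 23 libraries (RNeasy Mini kit and an Illumina library kit, per the labels' protocols) was counted by gene by the submitters. FastQC 0.9.0, Bowtie2 and the hg38 build are named per the submitters' processing notes, while the tool that counted the reads is not given in the sources used here. Whole read counts, as deposited, fill the LAPC4 table and the enzalutamide columns. The LNCaP overexpression and knockdown table and the combination and vehicle columns hold estimated counts, as deposited, which were rounded to whole numbers. Columns were matched to samples by name, and the enzalutamide columns to their group only. Of the drug table's identifiers 62.5% carried a current symbol, and all 10 members were among them.

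Tests were edgeR 4.0.16 quasi-likelihood F-tests (R 4.3.3, limma 3.58.1) with TMM scaling, filterByExpr and Benjamini-Hochberg adjustment over all genes tested. Overexpression and knockdown fits used their own groups, the drug fits shared all 3 arms, and the difference between lines was an interaction. Standard errors are the log2 fold change divided by the square root of F. Library totals of 20964025 to 30465978 counts limit scarce genes most (TET1 had 42 to 205 counts a library). Levels relative to lists used log2(CPM + 0.5), and exon-union lengths came from GENCODE 29. Start regions came from RefSeq (GRCh38.p14), and all 10 members matched. The fits were also run on simulated data with 200 changed genes. Far more genes were called in the real comparisons, so that run does not gauge their error rate. Alternatives were RLE scaling, DESeq2 1.42.0, no filter, a replicate block, other control libraries, the arms compared alone and leaving out each library.

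The members and lists were chosen with earlier results of these data known. Named beside the 10 members were ONECUT2, anchors of the lists, up to 3 called genes a list and comparison with the largest change, and the 3 genes most like each member. Replicate numbers did not pair the libraries (same-number correlations -0.104 to 0.105).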

Additional observations from a re-analysis of the deposited data

Results flagged for a closer look

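For 4 members the effect of OC2 overexpression differed between LAPC4 and LNCaP by the test of the difference itself (edgeR interaction, LAPC4 minus LNCaP). The difference of log2 fold changes was -0.914 for EZH1 (edgeR adjusted p = 0.00274), with -0.40 in LAPC4 and 0.52 in LNCaP. It was -1.152 for DNMT3A (edgeR adjusted p = 6.75e-06), with -0.59 in LAPC4 and 0.57 in LNCaP. It was -1.695 for DNMT3B (edgeR adjusted p = 9.43e-08), with -0.60 in LAPC4 and 1.10 in LNCaP. It was -1.665 for TET1 (edgeR adjusted p = 5.04e-05), with -0.93 in LAPC4 and 0.73 in LNCaP. Cell line, medium, added androgen, kind of control, kind of count (estimated or whole) and size of the OC2 rise differ together between these experiments and cannot be told apart. With the shCon libraries as the LNCaP reference the differences were -0.528 for EZH1 (edgeR adjusted p = 0.0451), -0.102 for DNMT3A (edgeR adjusted p = 0.498, no longer called), -1.391 for DNMT3B (edgeR adjusted p = 3.43e-07) and -0.570 for TET1 (edgeR adjusted p = 0.038).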

How the results depend on the processing

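The number of members called stayed within 1.5 times its value in every comparison and alternative. Leaving out 1 library gave 4 to 6 called in LAPC4 (51.2% to 69.1% of all genes called) and 6 to 8 with the combination (36.5% to 55.4%). With enzalutamide it gave 7 to 8 (63.1% to 73.2%), and between the drug arms 3 to 6 (54.5% to 68.8%). Comparisons that use the LNCaP overexpression or hairpin groups can leave 1 library in a group, so no count is given for them. The counts are a description and no result about the members. With shCon as reference for LNCaP overexpression the direction turned for EZH2 (0.417), DNMT3A (-0.543) and TET1 (-0.421), and between the lines for EZH2 (-0.893) and SUZ12 (-0.039). The cause was not tested. The other reversals lie near 0: SUZ12 without a filter in LNCaP overexpression (0.005), TET1 with the combination under the replicate block (-0.000, edgeR adjusted p = 0.999), and between the lines EZH2 (-0.007 with RLE and with DESeq2) and SUZ12 (-0.001 with both). Replicate numbers share only a number. The replicate block called 7 members in LNCaP overexpression (66.0% of all genes called), 6 with shOC2 (51.4%) and 5 in shCon against control (54.6%). It called 6 in LAPC4 (58.0%) and 8 with the combination (58.6%). No paired analysis was possible because the enzalutamide columns carry no sample numbers, which holds for both enzalutamide comparisons.

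Leaving out 1 library turned the sign of members that were not called. In LNCaP overexpression EED ran from -0.174 to 0.019 and SUZ12 from -0.105 to 0.097, with shOC2 DNMT3B from -0.238 to 0.007 and TET2 from -0.205 to 0.174, and in shCon against control SUZ12 from -0.100 to 0.110 and UHRF1 from -0.086 to 0.086. In LAPC4 EED ran from -0.006 to 0.076, SUZ12 from -0.036 to 0.060 and DNMT1 from -0.003 to 0.097. With the combination TET1 ran from -0.180 to 0.267, and with enzalutamide EZH2 from -0.151 to 0.192. Between the drug arms EZH1 ran from -0.326 to 0.009, DNMT1 from -0.298 to 0.106, DNMT3A from -0.176 to 0.098 and UHRF1 from -0.088 to 0.524, the first, without the unnumbered enzalutamide library, being called for DNMT1 (edgeR adjusted p = 0.00415). Between the lines EZH2 ran from -0.030 to 0.084, SUZ12 from -0.072 to 0.134, UHRF1 from -0.106 to 0.014 and TET2 from -0.161 to 0.043. Groups of 2 or 3 libraries limit every test here.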

Other observations

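Genes named in cancer as repressed by EZH2 were followed as a list of 11. Of those tested, 5 of 8 were higher and 2 lower in overexpressing LNCaP cells than in control, 6 of 9 higher and 2 lower in LAPC4, 2 of 6 higher and 2 lower with shOC2, 2 of 6 higher and 1 lower with the combination, and 1 of 6 higher and 4 lower with enzalutamide. IGFBP3, a binding protein of insulin-like growth factors, stood at 164 ± 15.3 CPM with shOC2 against 4.52 ± 1.31 CPM with shCon (log2 fold change 5.19, SE 0.13, edgeR adjusted p = 4.23e-09), and at 1082 ± 136 CPM with enzalutamide against 16.9 ± 1.96 CPM with vehicle (63.9-fold higher, edgeR adjusted p = 8.87e-08, means ± SD, n = 2 for each hairpin and 3 for each drug arm). EZH2 fell in the first of these comparisons and was not called in the second. MSMB, a secretory protein gene of luminal cells, had 2 counts over the combination libraries against 81 over the vehicle libraries, and was lower with enzalutamide than with vehicle (log2 fold change -2.57, SE 0.42, edgeR adjusted p = 0.000312).

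Of 15 germline genes that DNA methylation keeps silent in most tissues, 6 or 7 passed the filter in each of the 5 treatment comparisons. With shOC2, where DNMT1 and UHRF1 fell, 5 of 6 tested were higher and 0 lower than with shCon. With the combination, where both also fell, 0 of 7 were higher and 3 lower than with vehicle, and with enzalutamide 2 were higher and 2 lower of 7. In overexpressing LNCaP cells 4 of 7 were higher and 3 lower, and in LAPC4 0 of 6 higher and 5 lower. The LNCaP control sets also differed, with 1 of 5 tested higher and 3 lower with shCon than in control. MAGEA10, a cancer-testis antigen gene, stood at 51.2 ± 1.31 CPM with shOC2 against 3.29 ± 0.484 CPM with shCon (3.96, SE 0.10, edgeR adjusted p = 4.23e-09). With overexpression in LNCaP it stood at 33.6 ± 0.940 CPM against 1.79 ± 0.139 CPM in control (4.21, SE 0.13, edgeR adjusted p = 8.97e-09). In both lists some genes passed the filter only through the group in which they are high, so the counts are a description. DNA methylation itself was not measured.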
